A study of Rattus norvegicus with 6 samples.

Results

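The immediate early response genes are 33 genes chosen by symbol, of 32623 genes in all. They comprise 9 AP-1 and related leucine zipper genes, 3 EGR, 3 NR4A, 4 IER and AXUD, 3 DUSP, 3 ZFP36, 2 BTG, 3 KLF and MYC genes, and Sgk1, Per1 and Rhob. All 33 were found by symbol, and 32 passed the filter on low counts. RNA was sequenced from primary liver sinusoidal endothelial cells of Han Wistar rats, the fenestrated lining of the liver capillaries, which shared a perfused device with hepatocytes, stellate cells and hepatic macrophages. A shear stress of 1.15 dyn/cm2 was applied for 48 h at either 1 mmHg, the physiological pressure, or 12 mmHg, the pathological pressure, with 3 libraries per pressure. The labels give no genotype, drug or age of the animals. They also do not say whether each library had its own animal or culture, so the spread behind each p may be technical.

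Immediate early genes are transcribed within minutes of a stimulus, without new protein synthesis, through factors that already sit on their promoters. Serum response factor binds the CArG box and CREB binds the cyclic AMP response element (CRE), and MAP kinase signals can act through both. Many of the products are transcription factors (AP-1, EGR, NR4A) that switch on later genes, while others (DUSP, ZFP36, BTG) dephosphorylate MAP kinases or shorten the life of messenger RNA and so end the response. In endothelium these genes are known to respond to shear, stretch and growth factors.

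The upstream sequences of the genes described most closely in the results are shown first, with the promoter elements found in some of the members, which the selection by symbol did not use. RefSeq promoter sequences of the rat build GRCr8 were found for 24 of the 33 genes, and the 250 bases before each start site were searched on both strands. A CArG box stood in 5 of the 24 genes (20.8%), namely Dusp5, Egr1, Egr2, Klf6 and Zfp36, against 1.5% of the 33469 promoters in the table. The full CRE, TGACGTCA, stood in 5 of 24 (20.8%), namely Btg2, Dusp1, Ier2, Jund and Maff, against 1.59% of all promoters. The EGR site GCGNGGGCG stood in 8 of 24 (33.3%, against 4.29%), and the AP-1 site TGANTCA in 1 of 24, Zfp36l1 (4.17%, against 6.34%). No CArG or CRE match overlapped a match to another of these motifs. A match is a string of letters and says nothing of binding.

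Maff and Zfp36 are given in full because the libraries of Maff separated by pressure and those of Zfp36 did so under other scalings, and Btg2 because it had the smallest unadjusted p of all the members. Capitals mark the CRE in Maff (chr7:112792537-112792786, plus strand) and Btg2 (chr13:48087691-48087940, minus strand) and the CArG box in Zfp36 (chr1:92799109-92799358, minus strand), all GRCr8, and each sequence ends at the base before the start site.
Maff: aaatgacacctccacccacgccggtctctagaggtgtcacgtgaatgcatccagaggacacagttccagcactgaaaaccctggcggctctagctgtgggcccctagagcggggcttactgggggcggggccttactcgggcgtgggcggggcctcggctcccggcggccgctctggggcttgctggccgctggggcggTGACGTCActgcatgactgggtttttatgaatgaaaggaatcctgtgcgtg
Zfp36: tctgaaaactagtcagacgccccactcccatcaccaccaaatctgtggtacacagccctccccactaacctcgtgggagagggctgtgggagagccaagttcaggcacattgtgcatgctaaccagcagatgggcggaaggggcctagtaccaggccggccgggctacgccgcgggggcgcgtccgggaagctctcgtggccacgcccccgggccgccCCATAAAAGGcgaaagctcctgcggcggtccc
Btg2: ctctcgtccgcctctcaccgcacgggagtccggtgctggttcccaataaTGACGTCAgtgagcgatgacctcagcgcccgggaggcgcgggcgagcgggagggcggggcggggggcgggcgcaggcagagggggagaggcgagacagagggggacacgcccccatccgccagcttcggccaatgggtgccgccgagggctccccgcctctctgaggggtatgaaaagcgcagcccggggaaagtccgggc

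Shorter windows show the bases around the matches in other members, whose capitals are alike because the search fixed them. The capitals are CArG boxes in Dusp5 (chr1:262543682-262543721, plus strand), where 2 stand side by side, in Egr2 (chr20:21054505-21054534, minus strand) and in Klf6 (chr17:69458660-69458689, minus strand), and CREs in Dusp1 (chr10:17184719-17184746, plus strand), Ier2 (chr19:40399297-40399324, plus strand) and Jund (chr16:18769975-18770002, minus strand), all GRCr8.
Dusp5: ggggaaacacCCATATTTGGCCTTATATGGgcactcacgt
Egr2: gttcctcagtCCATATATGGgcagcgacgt
Klf6: aataggaaggCCTTTAATGGagaggctcgg
Dusp1: gcagggcgggTGACGTCAccacccggtc
Ier2: ggcgtttcagTGACGTCActcttactct
Jund: cccacccccaTGACGTCAacccacaatg

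The libraries differed widely in depth and in the transcripts of other cells. Totals ran from 8925159 to 24025445 counts, and the genes with at least 1 count from 10246 to 17205. The 22 hepatocyte markers summed to between 306 and 754 CPM (counts scaled to a common library total, which is used for marker sums, while single genes are also TMM-scaled) in 1 mmHg replicate 1 and 12 mmHg replicates 1 and 2, called poor in hepatocyte transcripts here, and to between 34100 and 67600 CPM in the other 3, called rich. At least 21 of the 22 hepatocyte markers had a count in every library. Macrophage markers summed to 46.1 CPM in 12 mmHg replicate 2, where F4/80 (Adgre1) was at 0, and to 773 to 1300 CPM elsewhere. Stellate markers summed to 690 to 1220 CPM at 1 mmHg and 419 to 1340 CPM at 12 mmHg, with Pdgfrb and Acta2 at 0 in 12 mmHg replicate 3. In the poor libraries most of that sum was Reln, at 424 to 515 CPM, which measured 0.944 to 78.6 CPM in the rich ones. Lrat measured 1.11 to 8.21 CPM in the poor libraries and 602 to 919 CPM in the rich ones, and Des 0.854 to 4.24 CPM and 86.4 to 209 CPM. Of 20 endothelial markers matched, 18 or 19 had a count in each library. They summed to 3370 to 6520 CPM at 1 mmHg and 1020 to 6260 CPM at 12 mmHg. By class the sums were 4120 to 6520 CPM in the rich libraries and 1020 to 3370 CPM in the poor ones. The general endothelial cadherin Cdh5 measured 183 to 319 CPM throughout, and Cldn5 was at 0 in all libraries. Flt1 measured 83.2, 97.9 and 84.5 CPM at 1 mmHg against 31.8, 74.9 and 74.9 CPM at 12 mmHg, ranges that overlapped with library totals alone. Kdr measured 353 to 499 CPM in the rich libraries and 4.17 to 43.6 CPM in the poor ones, and Erg 79.5 to 157 CPM and 5.13 to 36.4 CPM. Tie1, at 197 to 393 CPM, and Tek, at 53.5 to 264 CPM, did not divide by class. The sinusoidal scavenger receptor Stab2 measured 172 to 207 CPM in the rich libraries and 2.78 to 15.2 CPM in the poor ones, and the sinusoidal lectin Clec4g 79.5 to 181 CPM and 0.534 to 5.05 CPM. Lyve1 followed the same division, at 1610 to 2010 CPM and 41.1 to 247 CPM, as did Fcgr2b, at 876 to 1440 CPM and 52.6 to 585 CPM. Stab1 and Mrc1 did not follow it. Mrc1 measured 414, 399 and 37.6 CPM in 1 mmHg replicate 1 and 12 mmHg replicates 1 and 2, all poor. In the rich libraries it measured 178 to 238 CPM. Mitochondrial transcripts took 19.7% of the counts in 1 mmHg replicate 3 and 0.388% to 5.35% in the others. What part these differences play in the results below was not tested, and in such bulk RNA fewer cells of a type and less RNA per cell cannot be told apart.

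Between the pressures, most immediate early genes measured higher at 12 mmHg, and none passed the test. Of the 32 tested, 24 (75%) had a positive log2 fold change, where 52.5% of the 12742 genes tested did, and the median was 0.49 against 0.05 for all genes. By edgeR's quasi-likelihood test 0 of 32 members had a Benjamini-Hochberg adjusted p under 0.05, the share among all genes was 0.0%, and the adjusted p of every member was 1. The count of members with an unadjusted p below 0.05 was likewise 0, against 0.259% of all genes. DESeq2 called 0 members and 0.00785% of all genes, and limma-voom called 0 members and 0.0%. The CPM ranges did not overlap for 1 member, Maff, on the higher side (3.12%, against 1.55% of all genes) and for 0 on the lower side (against 3.05%). These counts describe the group and are no test of it.

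**Figure D1:**
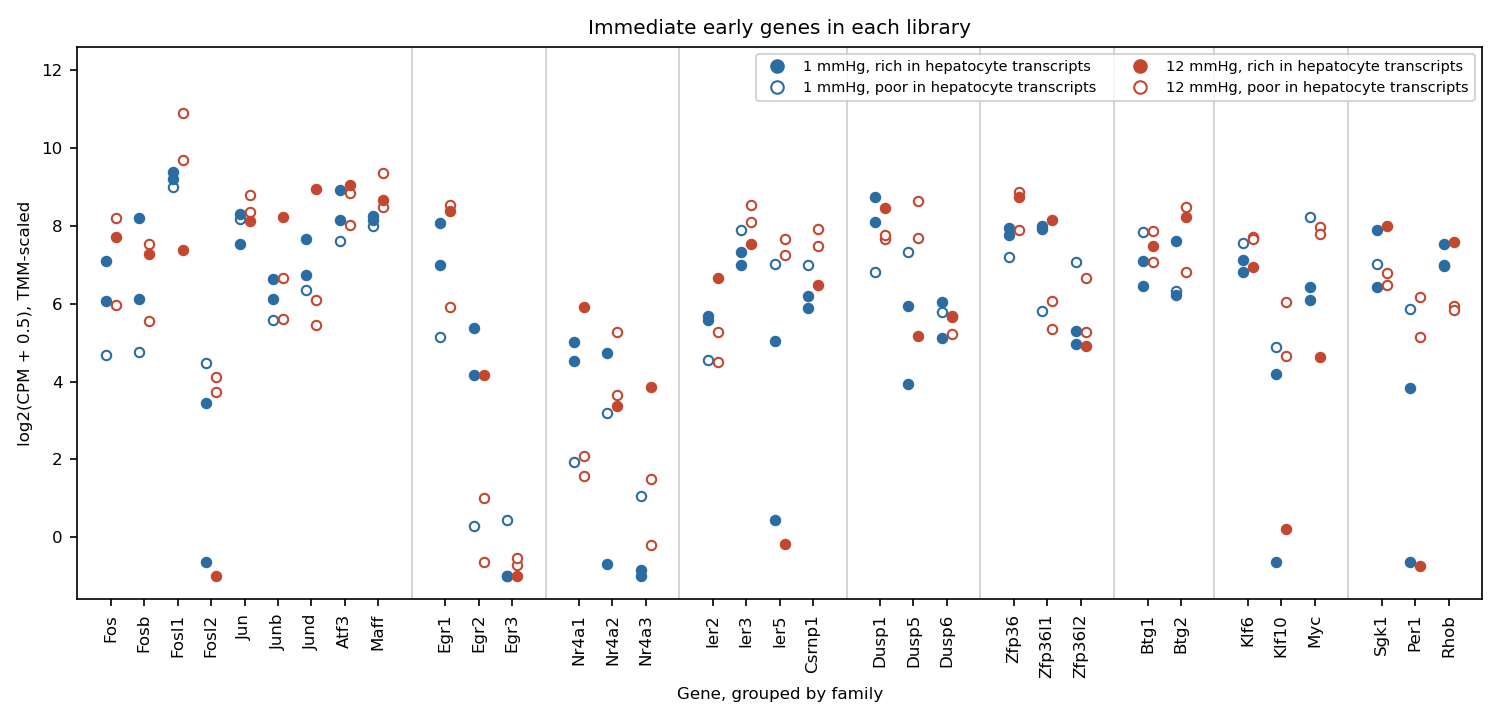
Levels of the 33 genes in each library as log2(CPM + 0.5) with TMM-scaled totals, grouped by family, with blue for 1 mmHg, red for 12 mmHg, filled points for the 3 libraries rich in hepatocyte transcripts and open points for the 3 poor ones. The 12 mmHg points lie wholly above the 1 mmHg points for Maff, while Ier5, Klf10, Per1 and Fosl2 have filled points near the bottom of the axis at both pressures.

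Values below are CPM with totals scaled by the TMM method, in the order replicate 1, 2 and 3 of each pressure, and fold changes are log2 values of 12 mmHg against 1 mmHg from edgeR with 95% confidence intervals. In the AP-1 group, 7 of 9 genes had positive fold changes, with a median of 0.64, and with library totals alone or DESeq2's size factors Fosb (0.10) became the eighth. Maff (ENSRNOG00000012886), a small MAF protein that pairs with other leucine zipper factors and has no activation domain of its own, measured 254, 285 and 306 CPM at 1 mmHg and 359, 659 and 407 CPM at 12 mmHg. The 12 mmHg libraries all lay above the 1 mmHg libraries, with the gap smallest between 1 mmHg replicate 3 and 12 mmHg replicate 1. Its fold change was 0.76 (95% CI -0.52 to 2.03), and an exact permutation test over libraries on log2(CPM + 0.5) gave a two-sided p = 0.1, the smallest that 3 against 3 can reach. Any gene whose ranges do not overlap gets that value, so the test adds nothing to the separation. Its ranges also stayed apart with DESeq2's size factors, with library totals alone and with totals that omit hepatocyte marker and mitochondrial counts.

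Fos (ENSRNOG00000008015), the prototype of the class and a partner of JUN proteins in AP-1, measured 25.2, 67.1 and 137 CPM at 1 mmHg and 61.7, 293 and 210 CPM at 12 mmHg. Its fold change was 1.3 (95% CI -0.68 to 3.28). 12 mmHg replicates 2 and 3 lay above every 1 mmHg library, while 12 mmHg replicate 1 lay between 1 mmHg replicates 1 and 2. Fosb, a close relative, measured 26.5, 69.4 and 297 CPM against 46.5, 186 and 154 CPM, so that the highest value belonged to 1 mmHg replicate 3, and its fold change was -0.03.

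The Fos-related antigen Fosl1 (ENSRNOG00000020552), which accumulates later than Fos and lasts longer, measured 513, 590 and 664 CPM at 1 mmHg and 830, 1910 and 167 CPM at 12 mmHg. The 1 mmHg libraries lay close together, whereas the 12 mmHg libraries held both the highest and the lowest value of the series. The fold change of 0.72 (95% CI -1.24 to 2.67) turned to -0.23 without 12 mmHg replicate 2. Fosl2 had a fold change of -0.14 and was near 0 in both replicates 3, as described further on.

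Of the JUN proteins, the DNA-binding partners of FOS, Jun itself varied least, at 290, 186 and 319 CPM at 1 mmHg and 328, 441 and 277 CPM at 12 mmHg, with a fold change of 0.40. Junb, which often restrains JUN, measured 47.6, 98.4 and 69.1 CPM against 48.6, 101 and 298 CPM. Jund, the JUN member usually present before stimulation, measured 80.8, 107 and 201 CPM against 67.5, 43.2 and 494 CPM. For both Junb and Jund the highest value came from 12 mmHg replicate 3, and without that library Junb had a fold change of 0.08 in place of 1.06 and Jund of -1.21 in place of 0.64. Atf3, a stress-induced repressor, measured 194, 282 and 487 CPM against 261, 462 and 534 CPM, with a fold change of 0.38.

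The EGR zinc finger factors showed no common direction. Egr1 (ENSRNOG00000019422), induced through serum response factor and ERK, measured 34.9, 128 and 268 CPM at 1 mmHg and 60.0, 369 and 331 CPM at 12 mmHg, a fold change of 0.82 (95% CI -1.33 to 2.97). Its 6 libraries stood in the same order as those of Fos, from 1 mmHg replicate 1 through 12 mmHg replicate 1 and 1 mmHg replicates 2 and 3 to 12 mmHg replicates 3 and 2. Of 12742 genes tested, 8 including Fos and Egr1 had that order; this comparison was chosen after the values were seen. Egr2, by contrast, measured 0.721, 17.6 and 41.0 CPM against 1.5, 0.141 and 17.6 CPM, so that the 3 libraries rich in hepatocyte transcripts held its 3 highest values at either pressure. Egr3 did not pass the filter, with at most 0.852 CPM in any library and a count of 0 in 3 of 6.

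The orphan nuclear receptors of the NR4A family were sparse and had wide intervals. Nr4a1 measured 3.34, 22.5 and 32.1 CPM at 1 mmHg and 2.49, 3.73 and 59.8 CPM at 12 mmHg, again with its 3 highest values in the libraries rich in hepatocyte transcripts, and a fold change of 0.19 (95% CI -3.40 to 3.77). Nr4a2 measured 8.71, 0.115 and 26.3 CPM against 12.2, 38.1 and 9.82 CPM. Nr4a3 had the largest fitted fold change of the members, 3.30 (95% CI -2.73 to 9.33), from 1.57, 0.0576 and 0.0 CPM against 2.31, 0.377 and 13.9 CPM. That value rested on 12 mmHg replicate 3, without which it was 1.27, and 1 mmHg replicates 2 and 3 had 1 and 0 counts.

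All 4 IER and AXUD genes had positive fold changes, with a median of 0.82. Csrnp1 (ENSRNOG00000033433, also known as Axud1), a nuclear protein, measured 128, 72.6 and 59.3 CPM at 1 mmHg and 178, 244 and 89.1 CPM at 12 mmHg, with a fold change of 0.97 (95% CI -0.56 to 2.51). Ier3 (ENSRNOG00000000827), which prolongs ERK signalling and affects cell survival, measured 238, 161 and 128 CPM against 276, 370 and 186 CPM, with a fold change of 0.66 (95% CI -0.69 to 2.01). Csrnp1 and Ier3 shared the same order of all 6 libraries, and it divided by hepatocyte class. Lowest were 1 mmHg replicates 3 and 2 and then 12 mmHg replicate 3, all rich in hepatocyte transcripts. Above them stood 1 mmHg replicate 1 and 12 mmHg replicates 1 and 2, all poor. Of the 12 mmHg libraries, replicate 3 alone lay below a 1 mmHg library. How many other genes had that order was not counted. Ier2 measured 23.1, 47.2 and 51.1 CPM against 22.0, 37.9 and 100 CPM. Its fold change of 0.40 became -0.42 without 12 mmHg replicate 3.

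Dual-specificity phosphatases remove phosphate from MAP kinases and are themselves induced by them. Dusp5 (ENSRNOG00000014061), which acts on ERK in the nucleus, measured 161, 61.3 and 14.8 CPM at 1 mmHg and 205, 398 and 35.3 CPM at 12 mmHg, a fold change of 1.43 (95% CI -1.06 to 3.92). Within each class of libraries the values spread widely, and those rich in hepatocyte transcripts held the 3 lowest. Dusp1, which acts mainly on p38 and JNK, measured 112, 428 and 273 CPM against 204, 217 and 351 CPM, with a fold change of -0.08 (95% CI -1.6 to 1.45) that was 0.05 with DESeq2's size factors. Dusp6, the ERK phosphatase of the cytoplasm, ranged only from 34.2 to 66.1 CPM over the 6 libraries and had a fold change of -0.17.

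In the ZFP36 family, whose proteins bind AU-rich elements and promote decay of the transcript, the members went apart. Zfp36 (ENSRNOG00000058388, tristetraprolin) measured 147, 246 and 218 CPM at 1 mmHg and 237, 465 and 431 CPM at 12 mmHg, a fold change of 0.89 (95% CI -0.45 to 2.22). Only 12 mmHg replicate 1 and 1 mmHg replicate 2 overlapped, and the ranges did not overlap with library totals alone (as for 0.973% of all genes), with DESeq2's size factors (1.9%) or with totals that omit hepatocyte marker and mitochondrial counts (0.836%). Zfp36l1 measured 56.1, 255 and 242 CPM against 40.5, 66.4 and 286 CPM, where the libraries rich in hepatocyte transcripts held the 3 highest values. Zfp36l2 measured 133, 39.0 and 30.8 CPM against 100, 38.3 and 29.5 CPM, where 1 mmHg replicate 1 and 12 mmHg replicate 1 stood above the rest. Their fold changes were -0.49 and -0.27.

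BTG proteins slow proliferation and recruit the CCR4-NOT deadenylase to messenger RNA. Btg2 (ENSRNOG00000003300) measured 80.5, 74.4 and 197 CPM at 1 mmHg and 112, 357 and 301 CPM at 12 mmHg, a fold change of 1.13 (95% CI -0.52 to 2.78). Its 12 mmHg replicates 2 and 3 exceeded every 1 mmHg library, and 12 mmHg replicate 1 exceeded all but 1 mmHg replicate 3. Btg1 measured 230, 137 and 86.6 CPM against 235, 134 and 178 CPM, a fold change of 0.27, and like Zfp36l1 and Zfp36l2 it held fractional expected counts, so reads shared with similar sequences make it less certain.

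Klf6 (ENSRNOG00000016885), a zinc finger factor of injury responses, measured 188, 112 and 140 CPM at 1 mmHg and 210, 204 and 123 CPM at 12 mmHg, a fold change of 0.29 (95% CI -1.04 to 1.62). Myc, the growth regulator, measured 298, 86.1 and 67.6 CPM against 251, 223 and 24.1 CPM, with its 3 highest values in the libraries poor in hepatocyte transcripts, and a fold change of 0.14 that was -0.07 with totals that omit hepatocyte marker and mitochondrial counts. Klf10, induced by TGF-beta, measured 29.0, 17.9 and 0.142 CPM against 24.7, 65.4 and 0.661 CPM, a fold change of 0.95 (95% CI -3.29 to 5.19). The groups overlapped for all 3 of these genes.

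Sgk1, a kinase induced by serum and glucocorticoids, measured 129, 238 and 86.4 CPM at 1 mmHg and 111, 88.4 and 254 CPM at 12 mmHg, with a fold change of 0.00 (95% CI -1.61 to 1.61) that was -0.09 with library totals alone. Rhob (ENSRNOG00000021403), an inducible small GTPase, measured 125, 128 and 184 CPM against 61.2, 56.7 and 192 CPM, a fold change of -0.50 (95% CI -2.11 to 1.12). 12 mmHg replicates 1 and 2 lay below every 1 mmHg library and 12 mmHg replicate 3 above all of them. Per1, a clock gene that light, glucocorticoids and cyclic AMP induce, measured 57.6, 13.8 and 0.142 CPM against 72.2, 35.1 and 0.0944 CPM, a fold change of 0.58.

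**Figure D2:**
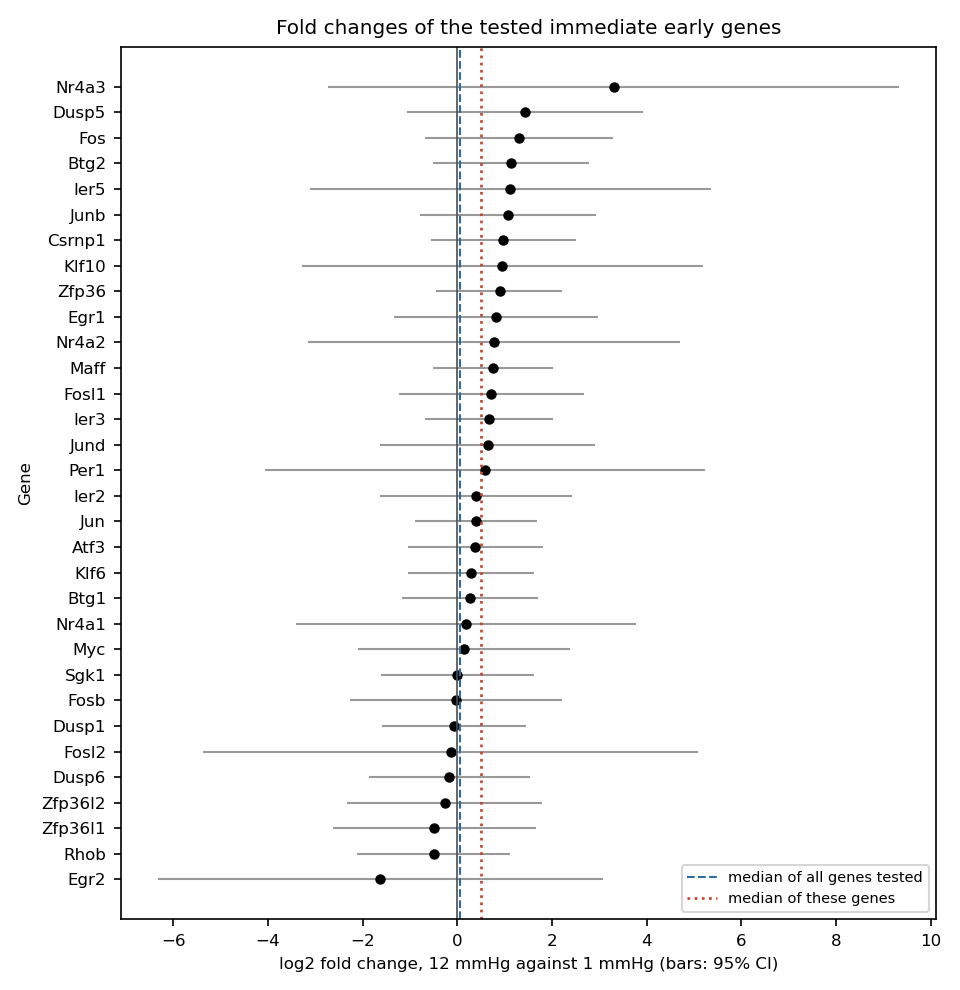
Log2 fold changes of the 32 tested genes, 12 mmHg against 1 mmHg, from edgeR, with bars for the 95% confidence interval, a dotted red line at their median of 0.49 and a dashed blue line at the median of all genes of 0.05. Every interval includes 0, and the points run from -1.63 for Egr2 to 3.30 for Nr4a3.

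Much of the variation belonged to single libraries. 12 mmHg replicate 2 held the highest value of 13 of 32 members (40.6%), among them Fos, Fosl1, Maff, Egr1, Ier3, Csrnp1, Dusp5, Zfp36 and Btg2, where it held the highest value of 21.1% of all genes tested. 12 mmHg replicate 3 held the highest value of 9 members (28.1%, against 21.3%), including Junb, Jund, Nr4a1, Ier2 and Rhob. 1 mmHg replicate 1 held the lowest value of 8 members (25.0%, against 9.83%), including Fos, Fosb, Egr1 and Dusp1. 12 mmHg replicate 2 was also the library with the lowest marker sums for macrophages (46.1 CPM), endothelium (1020 CPM) and stellate cells (419 CPM). The part of these differences in the values was not tested.

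**Figure D3:**
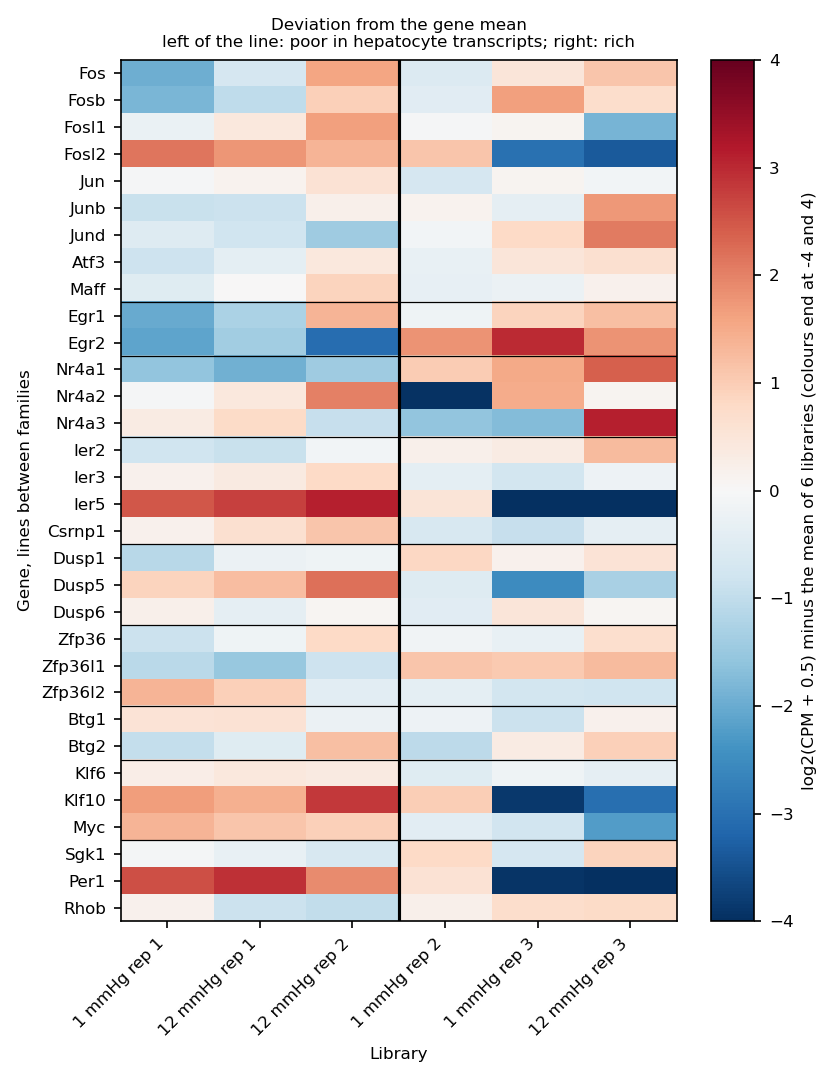
Deviation of each tested gene from its mean over the 6 libraries on the log2(CPM + 0.5) scale, with red above and blue below the mean, libraries poor in hepatocyte transcripts left of the heavy line and rich ones right of it. Fos and Egr1 deepen from blue to red within the left part, and Ier5, Klf10, Per1 and Fosl2 are dark blue in both replicates 3.

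Because pressure and hepatocyte transcripts were unevenly combined, the pressures were also compared within each class of libraries, 1 against 2 libraries in the poor class and 2 against 1 in the rich class. Both 12 mmHg libraries exceeded the 1 mmHg library for 17 of 32 members (53.1%) in the poor class, against 30.6% of all genes, and both lay below it for 7 (21.9%, against 41.2%). In the rich class the 12 mmHg library exceeded both 1 mmHg libraries for 17 of 32 members (53.1%), against 28.5% of all genes, and lay below both for 7 (21.9%, against 33.8%). Higher values in both classes were found for 9 members (28.1%, against 7.59% of all genes), which were Fos, Junb, Atf3, Maff, Egr1, Ier3, Csrnp1, Zfp36 and Btg2. With library totals alone Junb left and Jun joined these 9, and with totals that omit hepatocyte marker and mitochondrial counts Junb left, for 8 members against 4.76% of all genes. Lower values in both classes were found for Fosl2, Zfp36l2 and Myc (9.38%, against 12.9%). For Fosl2 that rested, in the rich class, on 1 count in 1 mmHg replicate 3 and 0 in 12 mmHg replicate 3, and with library totals alone Zfp36l2 left, for 2 members (6.25%) against 17.5% of all genes.

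The direction of several members differed between the classes, which was not tested as a difference. In the poor class alone, 12 mmHg replicate 2 was far above 1 mmHg replicate 1, by 3.54 on the log2 scale for Fos, 3.40 for Egr1, 2.81 for Fosb and 2.15 for Btg2, while 12 mmHg replicate 1 was above it by 1.29, 0.78, 0.81 and 0.48. Fitted alone, that class called 0 of 33 members and 0.0% of all genes by edgeR's adjusted p. The rich class, whose spread comes from 2 libraries at 1 mmHg, called 2 of 32 members against 1.94% of all genes. They were Jund, higher at 12 mmHg with a fold change of 1.70 (edgeR adjusted p = 0.0366), and Fosl1, lower with -1.89 (edgeR adjusted p = 0.0253), both resting on 12 mmHg replicate 3 alone. Fosl1 had the opposite direction in the poor class, where it measured 513 CPM at 1 mmHg and 830 and 1910 CPM at 12 mmHg.

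Another 4 members were almost absent from 2 libraries at opposite pressures. Fosl2, Ier5, Klf10 and Per1 had at least 10 CPM of the unscaled totals in the other 4 libraries and under 1 CPM in both 1 mmHg replicate 3 and 12 mmHg replicate 3. Ier5, a regulator of heat shock factor, measured 130, 32.5 and 0.852 CPM at 1 mmHg and 153, 202 and 0.378 CPM at 12 mmHg, on 6 and 4 counts in the replicates 3. Fosl2 measured 21.9, 10.5 and 0.142 CPM against 16.8, 12.7 and 0.0 CPM, on 1 and 0 counts, where 3 counts would be 0.336 and 0.263 CPM of the unscaled totals, a limit that covers counting error only. Per1 had 1 count in each of these libraries, and Klf10 had 1 and 7.

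These 4 are 14.3% of the 28 members with at least 10 CPM in the other 4 libraries, and 6.12% of all 5390 such genes did the same. The replicates 3 were the shallowest libraries, with 8925159 and 11426326 counts, and had the fewest genes with a count, 10665 and 10246, and the part of depth in these values was not tested. Fos, Egr1, Atf3 and Zfp36 were at or above 137 CPM in both of the same libraries.

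**Figure D4:**
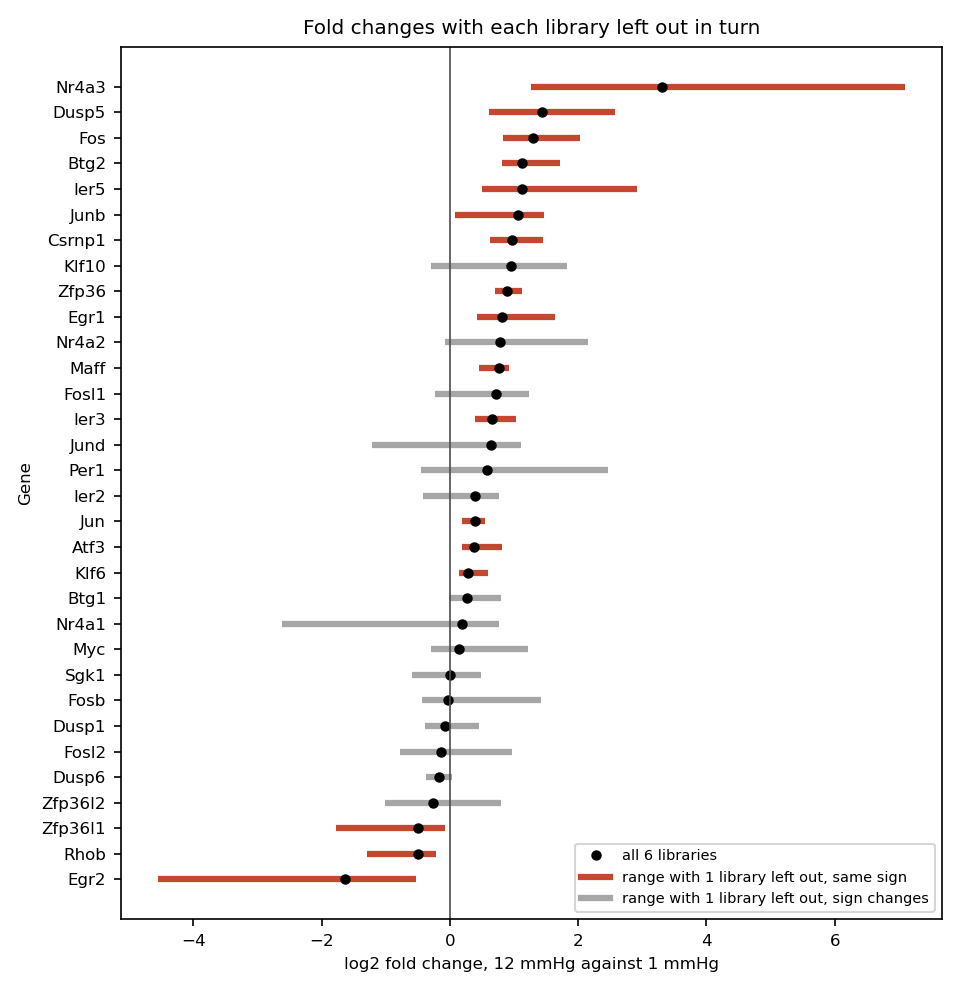
Log2 fold changes of the 32 tested genes with all 6 libraries (points) and their range when each library is left out in turn (bars, red where the sign is kept and grey where it changes). The bars of Zfp36, from 0.71 to 1.13, and Maff, from 0.45 to 0.92, are short and stay above 0, while the bar of Nr4a1 runs from -2.61 to 0.76.

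Related genes were taken from 10 lists of signalling partners, relatives and targets. In each list edgeR's test called 0 genes, and 0 genes had an unadjusted p below 0.05. The MAP kinase and CREB cascade, which carries the signal to the promoters, had 14 of 25 tested genes positive and a median fold change of 0.15. In it Map2k3, a kinase that activates p38, measured higher without overlap, at 54.1, 0.115 and 0.142 CPM at 1 mmHg and 85.4, 530 and 58.1 CPM at 12 mmHg. Its ranges did overlap with library totals alone and with totals that omit hepatocyte marker and mitochondrial counts. Among 25 genes, 4 measured lower without overlap, against 3.05% of all genes tested, and Map2k3 alone higher, against 1.55%. Rps6ka1, an ERK-activated kinase, measured 17.7, 20.3 and 18.7 CPM against 10.6, 2.92 and 0.0 CPM, and Rps6ka3 measured 74.0, 63.9 and 71.1 CPM against 47.8, 46.4 and 8.21 CPM. Mapkapk2 (133 ± 13.3 against 93.7 ± 19.6 CPM, SD, n = 3 each) and Mapk7, the ERK5 gene (37.1 ± 3.64 against 21.5 ± 14.9 CPM), were the others. With library totals alone only Rps6ka1 of these 4 still did not overlap. The related kinases Rps6ka4 (fold change 0.55) and Rps6ka5 (0.42) had the opposite sign, and their groups overlapped.

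Serum response factor and its cofactors were listed together with Nab1 and Nab2, which bind EGR proteins. That list had 3 of 8 genes positive and a median of -0.08. Elk4, which had the smallest unadjusted p there, measured 138 ± 76.0 CPM at 1 mmHg and 93.6 ± 49.8 CPM at 12 mmHg. Other AP-1 and small MAF partners had 7 of 11 positive and a median of 0.33, and Batf, the one with the smallest unadjusted p, was at most 5.25 CPM in any library. Feedback inhibitors of MAP kinases beside the DUSP members had 11 of 15 positive and a median of 0.46. In that list Dusp3 alone did not overlap, at 123, 164 and 121 CPM against 103, 51.6 and 74.2 CPM, and with library totals alone its ranges overlapped too.

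Other early response genes, which the 33 do not include, had 21 of 32 positive and a median of 0.54. Bcl3, an IkB-like nuclear protein, measured 3.70, 13.9 and 12.1 CPM at 1 mmHg and 0.712, 0.0 and 0.0944 CPM at 12 mmHg without overlap, and it lay opposite to the list. BTG and TOB partners with the CCR4-NOT deadenylase had 12 of 15 positive and a median of 0.46. Tob1, an antiproliferative relative of BTG, measured 72.4, 24.5 and 7.66 CPM against 98.9, 242 and 24.7 CPM, highest in 12 mmHg replicate 2 as Btg2 was.

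Transcripts that carry the AU-rich elements bound by ZFP36 had 6 of 13 positive and the lowest median of the lists, -0.92. Zfp36 itself had a fold change of 0.89, and a link between these values was not tested. Ccl2, the monocyte chemokine, measured 110, 213 and 176 CPM at 1 mmHg and 43.1, 76.7 and 78.9 CPM at 12 mmHg without overlap. Ier3, which is in both this list and the immediate early group, had 0.66. Targets of AP-1 and EGR1 had 8 of 19 positive and a median of -0.04, with Hmox1 at 2320 ± 483 and 5880 ± 5530 CPM (SD, n = 3 each).

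**Figure D5:**
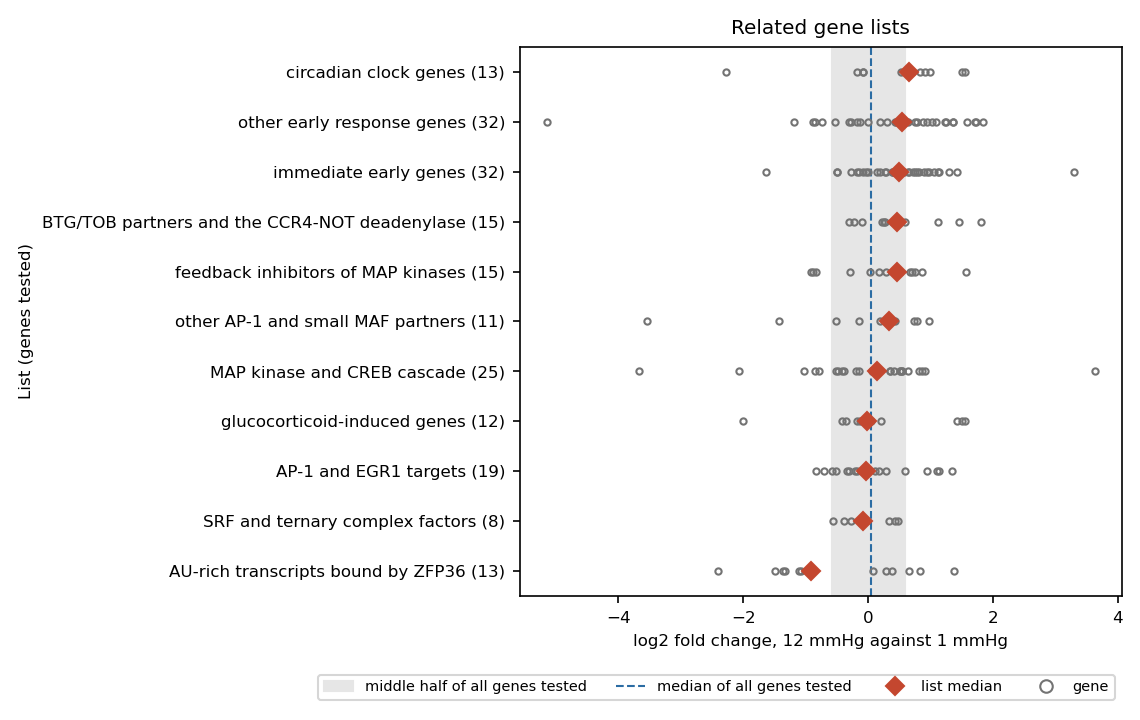
Log2 fold changes of 10 related lists and of the immediate early genes (open points for genes, red diamonds for list medians, number tested in brackets), with the interquartile range of all genes shaded from -0.57 to 0.60 and their median of 0.05 dashed. List medians run from -0.92 for the AU-rich transcripts to 0.66 for the circadian clock genes.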

How the data were processed

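Each library came as a file of expected counts (estimated read counts per gene, not normalized) that the authors deposited. The submitters' processing notes list STAR, RSEM and limma without versions. For the build, annotation and strand setting the sources used here give nothing. Libraries were prepared from 25 ng of total RNA with a poly(A) kit and read single-end, per the labels' protocols. Expected counts were rounded, filtered with filterByExpr (12742 of 32623 genes kept), scaled by TMM and tested with edgeR 4.0.16 in R 4.3.3 (quasi-likelihood F-test, no covariate, two-sided, Benjamini-Hochberg threshold 0.05). Log2 fold changes had a median standard error of 0.87 over the members and 1.72 over all genes, at a biological coefficient of variation of 1.39. Replicates of a group differed beyond sampling noise in every pair (chi-square over degrees of freedom at least 198). Alternatives used DESeq2 1.42.0, limma 3.58.1, other scalings and filters, a block, a hepatocyte term, subsets and left-out libraries. Libraries above 10000 CPM of the hepatocyte markers were called rich.

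Replicates were numbered in deposition order. The members and lists were chosen with earlier results of these data known. Values per library were given for members that did not overlap and, in each family, for the smallest p and the highest mean CPM, and for others where the text needed them. From the lists the text names genes whose groups did not overlap at a mean of at least 5 CPM and the smallest p in each; their overlap under other scalings was checked after seeing the data. Of the listed symbols, Mrtfa was matched through a synonym, Nr3c1 to the first of 2 identifiers, and Pecam1, Col1a2, Trac, Mrtfb, Mcl1, Ccnl1 and Mt2 were not matched. A further list is not reported here. Lymphocyte markers (1 of 9 matched tested), neutrophil markers (1 of 6) and cholangiocyte markers (5 of 6) summed to at most 47.0, 16.1 and 92.8 CPM in any library.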

Additional observations from a re-analysis of the deposited data

How the results depend on the processing

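The median fold change of the members stayed positive, at 0.27 to 0.57 under the settings other than leaving out a library and 0.35 to 0.74 with 1 library left out, moving by less than the spread between replicates. The median of all genes, 0.05 as reported, ran from -0.58 with only the rich libraries to 0.15 with DESeq2's size factors, and was 0.30 without 1 mmHg replicate 1. Members with a positive fold change numbered 20 to 26 under the settings that keep or drop a class of libraries or change the scaling, filter or test. Of all genes, 38.6% (only the rich libraries) to 57.0% (DESeq2's size factors) were positive under these settings. With 1 library left out the members numbered 21 to 24. The share of all genes was then 48.3% (without 12 mmHg replicate 1) to 57.5% (without 1 mmHg replicate 1). The number of members past the threshold was 0 under all settings except 2 with only the rich libraries, where 4 had an unadjusted p under 0.05 (9.9% of all genes), as did 3 with only the poor libraries, Fos, Fosb and Egr1 (1.27%). Members without overlap on the higher side numbered 2 with DESeq2's size factors, DESeq2, library totals alone or totals without hepatocyte marker and mitochondrial counts, 17 with only the rich (30.5% of all genes) and 17 with only the poor libraries (29.5%), and 2 to 8 with a library left out, 8 being without 12 mmHg replicate 3 (13.3% of all genes) and 6 without 12 mmHg replicate 1 (3.21%) or 1 mmHg replicate 1 (8.59%). On the lower side they numbered 7 with only the rich (34.6% of all genes), 8 with only the poor libraries (38.9%) and 0 to 2 with a library left out, 2 being without 12 mmHg replicate 3 (10.8%).

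The sign was kept under every setting by 10 of 32 genes, namely Atf3, Btg2, Csrnp1, Egr1, Fos, Ier3, Jun, Junb, Maff and Zfp36. The settings reuse the same libraries, and the share of all genes that kept their sign was not counted. With DESeq2's size factors or DESeq2, Fosb was 0.10 and Dusp1 0.05. With library totals alone, Fosb was 0.10, Myc 0.00 (below 0 before rounding) and Sgk1 -0.09, and with totals without hepatocyte marker and mitochondrial counts Myc was -0.07 and Sgk1 -0.12. Without a filter Sgk1 was -0.01. With limma-voom, Fosb was 0.80, Jund -0.17, Nr4a1 -0.54, Dusp1 0.12, Myc -0.08 and Sgk1 -0.19. With a block of neighbouring sample numbers (2 with 3, 11 with 9, 22 with 23), which no label states to be a pairing, Fosb was 0.45, Jund -0.10, Nr4a1 -0.67, Dusp1 0.09, Myc -0.13 and Sgk1 -0.05, and the block called 0 members. With a hepatocyte term, Fosb was 0.72, Ier5 -1.11, Dusp1 0.33, Klf10 -0.67, Myc -0.68 and Per1 -1.88, and Zfp36 was the 1 member at an unadjusted p under 0.05. With only the poor libraries, Fosb was 2.13, Jund -0.53, Egr2 0.22, Nr4a1 -0.10, Nr4a3 -0.19, Dusp1 0.92, Btg1 -0.30, Myc -0.32, Sgk1 -0.36 and Per1 -0.08. With only the rich libraries, Fosl1 was -1.89, Nr4a2 -0.39, Ier5 -5.43, Dusp1 0.01, Dusp5 -0.11, Dusp6 0.04, Zfp36l1 0.22, Klf6 -0.02, Klf10 -3.76, Myc -1.66, Per1 -6.06 and Rhob 0.32. The cause of these reversals was not tested.

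With 1 library left out, the ranges that crossed 0 were -0.44 to 1.42 for Fosb, -0.23 to 1.23 for Fosl1, -0.78 to 0.97 for Fosl2, -1.21 to 1.11 for Jund, -2.61 to 0.76 for Nr4a1, -0.07 to 2.16 for Nr4a2, -0.42 to 0.76 for Ier2, -0.38 to 0.46 for Dusp1, -0.37 to 0.04 for Dusp6, -1.01 to 0.79 for Zfp36l2, -0.02 to 0.79 for Btg1, -0.30 to 1.82 for Klf10, -0.29 to 1.22 for Myc, -0.59 to 0.48 for Sgk1 and -0.45 to 2.46 for Per1.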

Other observations

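The circadian clock genes, which work with Per1 in the oscillator or its output, had 9 of 13 tested genes positive and the highest median of the lists, 0.66, and none passed edgeR's test. The repressor Cry1 measured 32.9, 8.12 and 5.96 CPM at 1 mmHg and 43.2, 56.1 and 33.7 CPM at 12 mmHg, without overlap. Its log2 fold change was 1.5 (95% CI -0.93 to 3.93). Its ranges did overlap with library totals alone and with totals that omit hepatocyte marker and mitochondrial counts. Tef, a PAR leucine zipper factor and clock output, measured 32.8, 18.5 and 41.4 CPM against 43.5, 52.0 and 69.5 CPM, also without overlap. Of all genes tested, 1.55% were higher without overlap, a description and no test of the list. Dbp, a relative of Tef named here after its values were seen, had the opposite direction (-2.28) and was at 0 in 12 mmHg replicate 3.

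Glucocorticoid-induced genes had 6 of 12 positive and a median of -0.01, and Ddit4, the one with the smallest unadjusted p there, measured 74.6, 50.5 and 18.3 CPM at 1 mmHg and 100, 253 and 29.2 CPM at 12 mmHg. Among the cell type markers, the smallest unadjusted p belonged to Pdgfrb of stellate cells. It measured 4.36, 18.0 and 60.9 CPM at 1 mmHg and 0.498, 0.896 and 0.0 CPM at 12 mmHg, without overlap. Acta2 was also lower without overlap. Of 10 stellate markers tested, 8 had negative fold changes, while Des (0.09) and Reln (0.47) had positive ones. Lrat and Des had their highest values, 919 and 209 CPM, in 12 mmHg replicate 3, where Pdgfrb and Acta2 were at 0. In the other marker lists the smallest p belonged to Tat (hepatocytes), Adgre1 (macrophages), Sox17 (endothelium), Cd4 (lymphocytes), S100a8 (neutrophils) and Krt19 (cholangiocytes), and the groups overlapped for each.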
